A study of Oryctolagus cuniculus with 134 samples.

Results

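Irradiation of the heart was added to a cholesterol-rich diet in rabbits, and the RNA of the aortic valve was compared between rabbits with and without the irradiation. The comparison rests on 13 of the 134 libraries of the study, 7 from the IR/CHT group and 6 from the CHT group, and each library came from the aortic valve of a different animal. The 27 aortic valve libraries also held 7 from rabbits on standard chow (Ctrl) and 7 from rabbits on a lard diet (Lard), which entered the statistical model, and Ctrl is given below as the background level. All animals were male New Zealand White rabbits with no engineered allele, entered at an age of 12 weeks and followed for 16 weeks. CHT rabbits ate a diet with 0.3% cholesterol and drank vitamin D2 (25000 U per day per 2.5 kg) for 15 days at the start. IR/CHT rabbits received the same diet and vitamin and, after 8 weeks of the diet, 24 Gy of X-rays in 3 fractions of 8 Gy given 48 h apart, with the beam aimed at the aortic valve and the thoracic aorta. Lard rabbits ate 5% lard with the same vitamin supplement. The valve was taken when the 16 weeks ended, so the comparison describes the tissue about as long after irradiation as the diet had lasted before it. Irradiated rabbits on chow were not analysed here, so an effect of irradiation alone and one that needs the diet cannot be told apart.

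The aortic valve is a thin leaflet in which interstitial cells lie in layers of fibrillar collagen, proteoglycans and elastic fibres under a sheet of endothelium. On a cholesterol-rich diet macrophages enter the leaflet, take up lipoproteins and become foam cells, while in calcific valve disease interstitial cells can turn into myofibroblasts or bone-forming cells. Ionising radiation breaks DNA, which activates the transcription factor p53 and its target genes, and can be followed by inflammation and fibrosis in the heart and its valves.

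Between 14926657 and 39026994 read pairs were counted on genes in the CHT libraries (median 19533768) and between 16806754 and 26273291 in the IR/CHT libraries (median 18963551). All CHT libraries and 4 of the 7 IR/CHT libraries were on plate 1 and the other 3 IR/CHT libraries on plate 2, so the comparison was repeated with plate 1 alone. In a model with a term for the plate, edgeR called 0 of 15670 genes for the plate, with 1132 genes at an unadjusted p under 0.05. The first principal component of log2 CPM (counts scaled to a common library size) held 40.4% of the variance and ran from -88.5 to -52.6 in Ctrl, from 0.457 to 48.1 in CHT and from 85.8 to 132.7 in IR/CHT, without overlap of these groups. The second held 23.8% and split libraries within groups. CHT libraries L151, L186 and L228 and IR/CHT libraries L178 and L194 lay beyond 50 on its scale, and many results are also given without these 5. Summed markers of valve interstitial cells and fibroblasts ran from 35914 to 41467 CPM in CHT and from 27388 to 40544 CPM in IR/CHT, and this sum was not compared with that in other tissues. The 13 protein-coding genes of the mitochondrial genome took 0.0457 to 1.18% of the counts in CHT and 0.155 to 0.974% in IR/CHT.

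**Figure D1:**
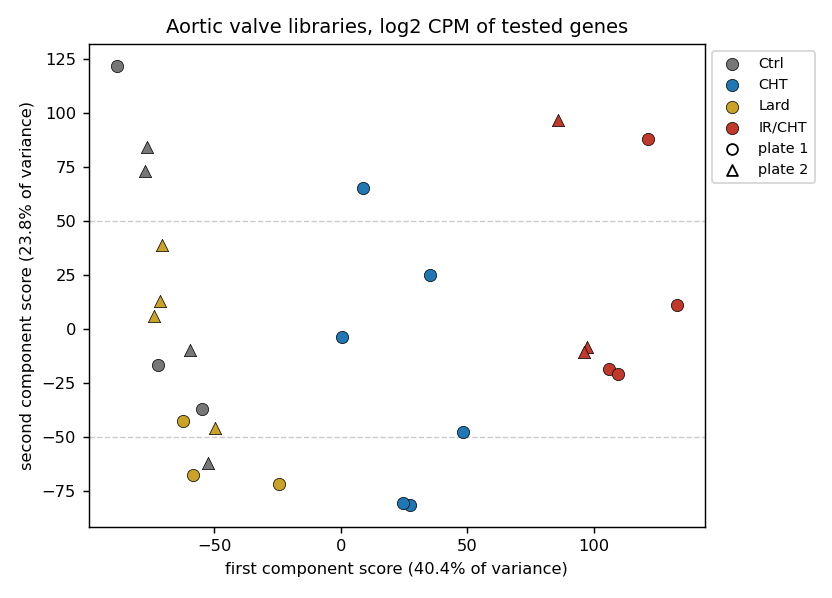
Score of each of the 27 aortic valve libraries on the first (horizontal) and second (vertical) principal component of log2 CPM, coloured by group, with circles for plate 1 and triangles for plate 2. CHT scores lie between 0.457 and 48.1 and IR/CHT scores between 85.8 and 132.7 on the horizontal axis, and the dashed lines at 50 and -50 mark the 5 CHT and IR/CHT libraries farthest from the middle on the vertical axis.

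The aortic valve of IR/CHT rabbits differed from that of CHT rabbits in a large part of its transcriptome. Genes of macrophages, lipid storage, interferon response, antigen presentation and p53 were among those that rose. Genes of valve interstitial cells, heart development, Wnt and BMP signaling, nerve and cartilage were among those that fell. At an adjusted p under 0.05 and a fold change over 1.5, 3043 of 15408 tested genes (19.7%) were called, 1526 higher (9.9%) and 1517 lower (9.85%) in IR/CHT. The median log2 fold change of all tested genes was 0.015. With the libraries of plate 1 alone, 2753 of 15522 genes (17.7%) were called, 1279 higher (8.24%) and 1474 lower (9.5%), and these included 1151 of the 1526 higher and 1215 of the 1517 lower genes. Without the 5 libraries beyond 50 on the second component, an alternative chosen after the data were seen, 436 genes were higher and 833 lower. Every IR/CHT library lay above every CHT library in 897 genes (5.82%) and below in 636 (4.13%). In bulk tissue, a change in the number of cells of a type and a change in the RNA per cell cannot be told apart, and this holds for all results below.

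**Figure D2:**
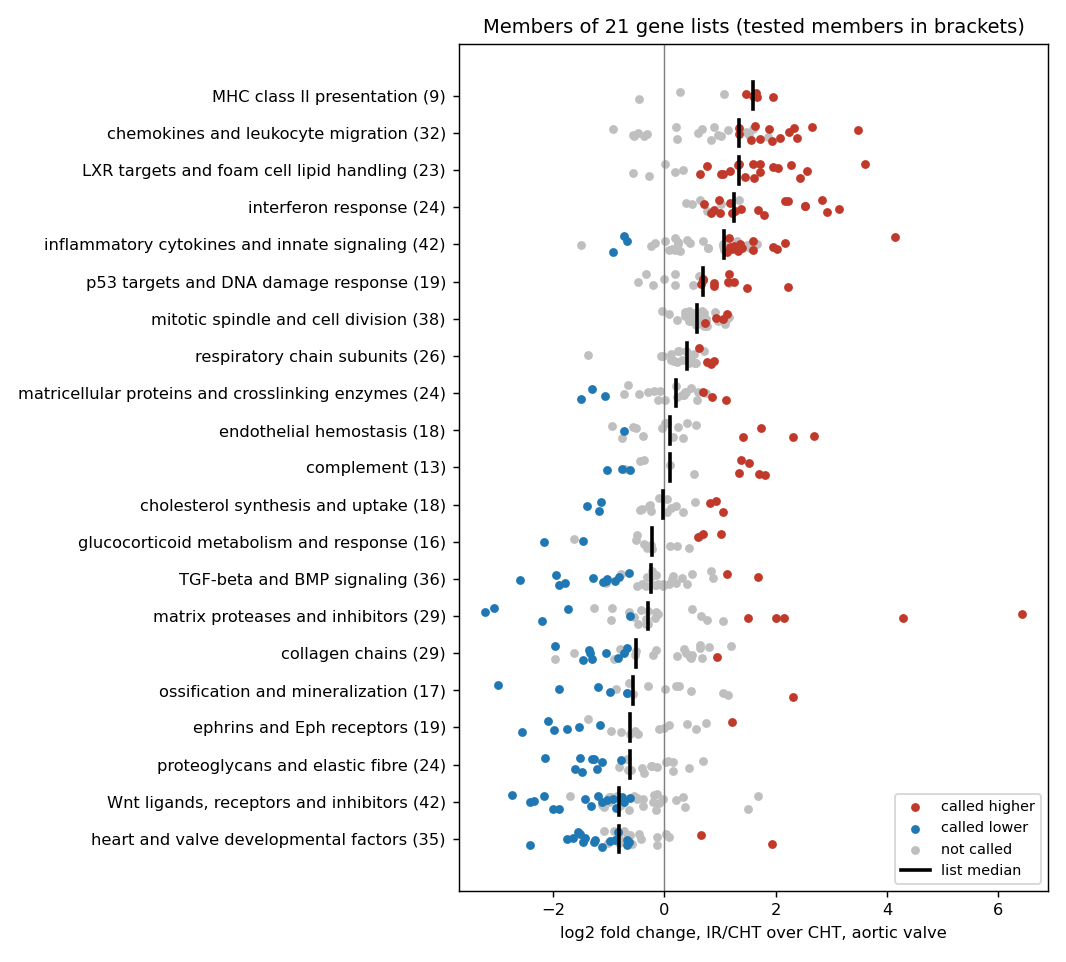
Log2 fold change of IR/CHT over CHT in the aortic valve (horizontal) for each tested member of 21 gene lists (rows, sorted by median), red where called higher, blue where called lower and grey where not called, with black bars for list medians. Medians run from -0.82 for heart and valve developmental factors to 1.59 for MHC class II presentation.

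Of the genes that p53 switches on after DNA damage, about as many rose as did not pass the test. Of 19 tested members of the p53 list, 10 were called higher and the other 9 were not called, with a list median of 0.69, and the same numbers were called in plate 1. The 10 were SESN2 (2.21), BAX (1.48), ZMAT3 (1.25), PHLDA3 (1.17), PLK3 (1.14), EDA2R (0.89), DDB2 (0.89), TP53INP1 (0.70), GADD45A (0.69) and XPC (0.65), with log2 fold changes in brackets. SESN2, a stress-induced regulator of growth signaling, ran from 1.26 to 4.55 CPM with a median of 3.29 in CHT and from 10.1 to 20.3 CPM with a median of 13.9 in IR/CHT. The groups did not overlap, and the difference was a log2 fold change of 2.21 ± 0.33 (SE, adjusted p = 3.7e-05). ZMAT3, an RNA-binding p53 target, ran from 19.5 to 38.8 CPM with a median of 27.7 in CHT and from 43.2 to 85.6 CPM with a median of 76.5 in IR/CHT. It also separated all libraries, with a log2 fold change of 1.25 ± 0.21 (SE, adjusted p = 1.0e-04), and its Ctrl median was 21.0 CPM, near that of CHT. DDB2, which recognises damaged DNA for repair, ran from 16.2 to 23.4 CPM with a median of 20.1 in CHT and from 28.6 to 42.2 CPM with a median of 39.1 in IR/CHT, with a log2 fold change of 0.89 ± 0.15 (SE, adjusted p = 1.4e-04) and again no overlap. The summed level of the list ran from 507 to 634 CPM in CHT and from 838 to 926 CPM in IR/CHT. RRM2B, POLH and SESN1, further members, had log2 fold changes of 0.19, -0.00 and -0.20 and were not called. The files hold no row with the symbols CDKN1A or MDM2. Without the 5 libraries named above, 6 members were called higher.

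Most macrophage markers rose. Of 15 tested, 10 were called higher and the other 5 were not called, with a median log2 fold change of 1.38, and 10 were called higher in plate 1. Their summed level ran from 1651 to 3079 CPM in CHT and from 5915 to 12531 CPM in IR/CHT, and reached at most 732 CPM in Ctrl, so the irradiated valves lay above a group that already exceeded chow. CD68, a lysosomal glycoprotein of macrophages, ran from 113 to 313 CPM with a median of 207 in CHT and from 494 to 987 CPM with a median of 683 in IR/CHT. The lowest IR/CHT valve exceeded the highest CHT valve, and the difference was a log2 fold change of 1.79 ± 0.24 (SE, adjusted p = 8.5e-06). GPNMB, a glycoprotein of lipid-laden macrophages and of melanocytes, ran from 9.11 to 10.96 with a median of 9.74 in CHT and from 11.75 to 13.24 with a median of 12.00 in IR/CHT on the log2 CPM scale, against 2.78 in the median Ctrl valve. Its log2 fold change was 2.28 ± 0.35 (SE, adjusted p = 4.6e-05), and no library overlapped. VSIG4, a complement receptor of macrophages, ran from 4.89 to 5.79 with a median of 5.69 in CHT and from 6.96 to 7.79 with a median of 7.31 in IR/CHT on the log2 CPM scale (log2 fold change 1.81 ± 0.30 SE, adjusted p = 1.2e-04). The called set also held MSR1, CYBB, C1QC, C1QB, CD14, AIF1 and CSF1R, at log2 fold changes between 1.24 and 1.71. The scavenger receptors MARCO and CD163, the hyaluronan receptor LYVE1, the mannose receptor MRC1 and C1QA were not called, at log2 fold changes of 1.99, -0.09, -0.26, -0.43 and 0.53. Without the 5 libraries, 5 macrophage markers were called.

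With all libraries, genes of lipid handling had the largest share of called members among the 21 process lists, just ahead of the interferon response, but without the 5 libraries their share was below that of the interferon response. Of 23 tested members of the list of LXR targets and foam cell genes, 18 were called higher, in all libraries and again in plate 1, and the other 5 were not called, with a median of 1.34, and 15 of the 18 separated the groups completely. PLIN2, the coat protein of lipid droplets, ran from 5.61 to 6.70 with a median of 6.10 in CHT and from 7.61 to 8.90 with a median of 7.94 in IR/CHT on the log2 CPM scale, against a median of 4.66 in Ctrl. Its log2 fold change was 1.95 ± 0.24 (SE, adjusted p = 5.1e-06). CD36, a scavenger receptor for oxidised lipoproteins, was among the 5 largest rises in genes of at least 5 CPM. It ran from 2.90 to 4.70 with a median of 3.64 in CHT and from 6.01 to 8.40 with a median of 7.38 in IR/CHT on the log2 CPM scale (log2 fold change 3.60 ± 0.62 SE, adjusted p = 1.5e-04). LPL, which releases fatty acids from lipoproteins, ran from 43.9 to 88.4 CPM with a median of 76.3 in CHT and from 119 to 1087 CPM with a median of 190.2 in IR/CHT (log2 fold change 2.57 ± 0.61 SE, adjusted p = 0.0029). NPC2 and NPC1, which carry cholesterol out of lysosomes, both rose without overlap, NPC2 by 1.32 ± 0.17 and NPC1 by 1.02 ± 0.13 on the log2 scale. The other called members were APOC1 (2.44), GPNMB (2.28), LIPA (2.04), LGALS3 (1.72), MSR1 (1.71), OLR1 (1.61), FABP5 (1.59), NR1H3 (1.44), PLTP (1.34), SOAT1 (1.18), ABCA1 (1.05), LPCAT3 (0.77) and NCEH1 (0.63), and they included the LXR receptor itself (NR1H3) and the cholesterol exporter ABCA1. SPP1, which encodes osteopontin, had a log2 fold change of 0.02 and was not called. Without the 5 libraries, 9 members were called, and LPL then had a log2 fold change of 2.77, adjusted p = 0.056. ANGPTL4, an inhibitor of LPL that is induced by fatty acids, ran from 0.472 to 1.99 CPM with a median of 1.16 in CHT and from 2.70 to 27.5 CPM with a median of 13.0 in IR/CHT, with a log2 fold change of 3.58 ± 0.58 (SE, adjusted p = 8.0e-05). Genes of cholesterol synthesis and uptake moved both ways. Of 18 tested genes 3 were higher and 3 lower, and the median was -0.03. FDFT1, squalene synthase, fell by 1.14 on the log2 scale (adjusted p = 0.021), whereas STARD4, a cholesterol carrier, rose by 0.93 (adjusted p = 0.012). FDFT1 was not called with the plate as a covariate (-1.04, adjusted p = 0.057). Without the 5 libraries the smallest adjusted p in the whole list was 0.053 (edgeR), so no member was called, and without CHT library L244 3 were.

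Among the higher genes with the smallest p-values was ABHD12, a lipase that degrades lysophosphatidylserine. It ran from 5.16 to 6.27 with a median of 5.60 in CHT and from 7.39 to 8.29 with a median of 7.54 in IR/CHT on the log2 CPM scale, and its Ctrl median was 3.77. The rise (log2 fold change 2.00 ± 0.19 SE, adjusted p = 3.8e-07) left the groups apart. TIMP1, a secreted inhibitor of matrix metalloproteinases, ran from 6.66 to 7.55 with a median of 6.82 in CHT and from 8.62 to 9.50 with a median of 8.99 in IR/CHT on the log2 CPM scale (log2 fold change 2.00 ± 0.21 SE, adjusted p = 1.6e-06). SRGN, the proteoglycan of leukocyte granules, ran from 17.0 to 44.4 CPM with a median of 24.8 in CHT and from 93.5 to 216 CPM with a median of 124 in IR/CHT (log2 fold change 2.37 ± 0.25 SE, adjusted p = 1.6e-06). SAMHD1, which hydrolyses deoxynucleotides, and CTSZ and CSTB, a lysosomal protease and a protease inhibitor, rose by 1.44 ± 0.16, 1.61 ± 0.19 and 1.80 ± 0.23 on the log2 scale. GLB1, lysosomal beta-galactosidase, ran from 6.54 to 8.01 with a median of 7.32 in CHT and from 8.48 to 9.57 with a median of 8.98 in IR/CHT on the log2 CPM scale (log2 fold change 1.61 ± 0.20 SE, adjusted p = 5.5e-06), against 4.79 in the median Ctrl valve. DOCK8, a regulator of leukocyte movement, and SH3KBP1, an adaptor of receptor uptake, rose by 0.93 ± 0.11 and 0.94 ± 0.12. Every IR/CHT library lay above every CHT library in each of these 9 genes, as in 5.82% of all tested genes. These 9 were picked for small p-values in the same comparison, which favours such a separation. Among genes with a mean of at least 5 CPM in a group, several of the largest rises were in genes near 0 in CHT. The fold of such genes depends on the count added before taking logs. MMP1, interstitial collagenase, had at most 5 read pairs in a CHT library and ran from 0.24 to 19.6 CPM with a median of 1.73 in IR/CHT (log2 fold change 6.42 ± 1.13 SE, adjusted p = 3.5e-04). ACOD1, which makes itaconate in activated macrophages, ran from 0.711 to 31.3 CPM with a median of 2.19 in IR/CHT and reached 0.502 CPM in CHT (log2 fold change 4.45 ± 1.06 SE, adjusted p = 0.0031). Its log2 fold change was 3.00, adjusted p = 0.023 without IR/CHT library L178, and it was not called without the 5 libraries (adjusted p = 0.18). BNIP5 ran from 0 to 1.43 CPM with a median of 1.11 in CHT and from 3.45 to 41.2 CPM with a median of 9.34 in IR/CHT (log2 fold change 3.78 ± 0.61 SE, adjusted p = 7.9e-05).

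**Figure D3:**
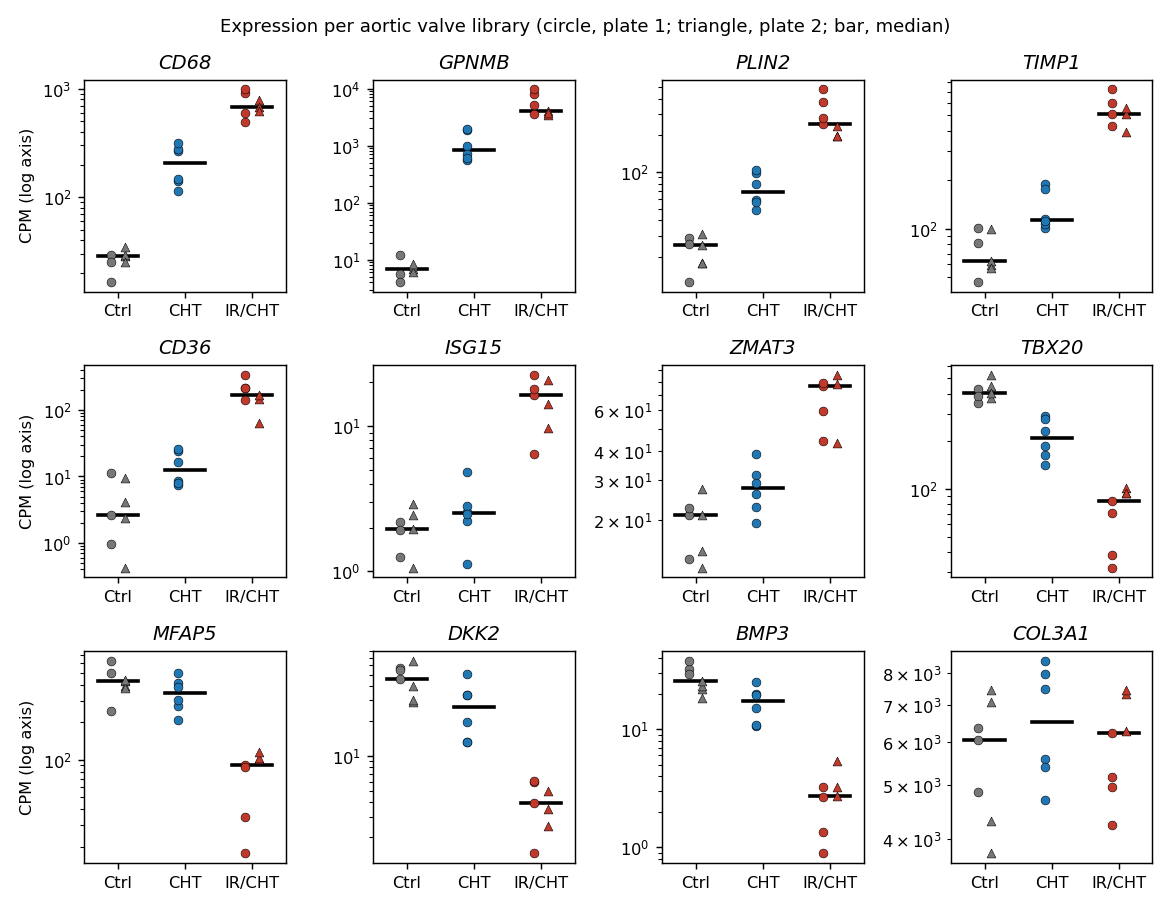
Expression (CPM, log axes) of 12 genes in each Ctrl, CHT and IR/CHT aortic valve library, with circles for plate 1, triangles for plate 2 and bars at the medians. The 7 IR/CHT values lie above the 6 CHT values for CD68, GPNMB, PLIN2, TIMP1, CD36, ISG15 and ZMAT3 and below them for TBX20, MFAP5, DKK2 and BMP3, while those of COL3A1 overlap.

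Several receptors and adhesion molecules of leukocytes rose, while the cytokines IL1B and TNF were not called. Of 32 tested genes of chemokines and leukocyte migration, 13 were called higher (9 in plate 1) and the other 19 were not called, and the median was 1.34. ITGB2, the shared chain of leukocyte integrins, ran from 5.91 to 7.82 with a median of 6.83 in CHT and from 8.55 to 9.91 with a median of 9.11 in IR/CHT on the log2 CPM scale (log2 fold change 2.23 ± 0.36 SE, adjusted p = 7.2e-05), from a Ctrl median of 3.73. Its partners ITGAL and ITGAM rose by 2.32 ± 0.40 and 1.63 ± 0.30 on the log2 scale, and C5AR1, the receptor of complement fragment C5a, by 2.08 ± 0.32, all without overlap of the groups. Called chemokine genes were CCL13 (3.47), CXCL10 (2.64), CCL5 (2.38), CXCL8 (1.87) and CCL2 (1.34), of which CCL5, CXCL8 and CCL2 were not called in plate 1. The list of cytokines and innate signaling had 14 higher and 3 lower of 42 (12 and 3 in plate 1), with a median of 1.06. TLR2, a receptor for bacterial lipoproteins, ran from 7.05 to 14.6 CPM with a median of 11.7 in CHT and from 26.4 to 45.4 CPM with a median of 27.9 in IR/CHT (2.64-fold, adjusted p = 2.5e-04). IL10RA and IL6R, chains of cytokine receptors, rose by 1.60 ± 0.30 and 2.03 ± 0.39. By contrast, IL1B ran from 0.238 to 0.692 CPM with a median of 0.439 in CHT and from 0.226 to 3.29 CPM with a median of 0.923 in IR/CHT and was not called (log2 fold change 1.54 ± 0.68, adjusted p = 0.11). TNF had a log2 fold change of 1.41 ± 0.69 (adjusted p = 0.14) and was called when the model held the CHT and IR/CHT libraries alone (adjusted p = 0.026). The highest level of TNF in an IR/CHT library was 5.70 CPM. The 3 lower members were OSMR (-0.67), IL1R1 (-0.92) and PTGS1 (-0.73), which are receptors of oncostatin M and interleukin-1 and a cyclooxygenase. Without the 5 libraries, 6 chemokine and migration genes and 3 cytokine and innate genes were called, all higher.

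Most genes of antigen presentation rose, and complement genes moved both ways. Of 9 tested genes of MHC class II presentation 6 were called higher (5 higher and 1 lower in plate 1, and 5 higher without the 5 libraries), with a median of 1.59. CTSS, the protease that trims the invariant chain, ran from 98.3 to 281 CPM with a median of 146 in CHT and from 396 to 1094 CPM with a median of 687 in IR/CHT (log2 fold change 1.95 ± 0.35 SE, adjusted p = 2.2e-04). CD74, the invariant chain, ran from 396 to 907 CPM with a median of 599.6 in CHT and from 1187 to 2077 CPM with a median of 1901 in IR/CHT (log2 fold change 1.47 ± 0.29 SE, adjusted p = 6.5e-04), and HLA-DMA, which loads peptides, rose by 1.62 ± 0.25. Class II genes resemble each other in sequence, and reads shared between copies can be assigned to either. In the complement list 5 of 13 genes were higher and 3 lower (3 and 1 without the 5 libraries), with a median of 0.10. The higher ones were VSIG4 (1.81), CFP (1.70), C1QC (1.51), C1QB (1.38) and C2 (1.34) and the lower ones C1R (-0.62), C1S (-0.77) and MASP1 (-1.04). CFP, properdin, ran from 2.23 to 8.59 CPM with a median of 4.37 in CHT and from 12.0 to 21.0 CPM with a median of 18.0 in IR/CHT, without overlap (log2 fold change 1.70 ± 0.34 SE, adjusted p = 6.0e-04). C1QB, a chain of the recognition molecule C1q, ran from 17.1 to 61.9 CPM with a median of 28.6 in CHT and from 50.2 to 133 CPM with a median of 69.9 in IR/CHT and overlapped between the groups (log2 fold change 1.38 ± 0.31 SE, adjusted p = 0.002).

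Most genes that interferon induces rose. Of 24 tested members 18 were higher and the other 6 were not called, with a median of 1.24, and 17 were called in plate 1 and 15 without the 5 libraries. ISG15, a ubiquitin-like protein that interferon induces, ran from 1.11 to 4.80 CPM with a median of 2.52 in CHT and from 6.39 to 22.4 CPM with a median of 16.4 in IR/CHT. Its Ctrl median was 1.96 CPM, within the CHT range, and IR/CHT exceeded CHT without overlap (log2 fold change 2.52 ± 0.34 SE, adjusted p = 1.1e-05). RSAD2 (viperin), an antiviral enzyme, rose by 3.13 ± 0.46 (adjusted p = 2.7e-05) and OAS2, which makes the second messenger of RNase L, by 2.84 ± 0.46 (adjusted p = 8.7e-05), and neither overlapped. OAS2 ran from 1.30 to 13.7 CPM with a median of 7.57 in CHT and from 20.3 to 74.0 CPM with a median of 62.2 in IR/CHT. Other called members were OASL (2.92), IRF7 (2.53), IFIT3 (2.22), GBP1 (2.17), IRF8 (1.79), IFIT2 (1.69), HERC6 (1.38), CMPK2 (1.27), PARP14 (1.21), PSMB8 (1.19), TAP1 (1.01), IFIH1 (0.97), DTX3L (0.88) and PARP9 (0.84), and among them IFIH1 senses cytosolic RNA.

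Markers of other immune cells changed less evenly. T cell genes were called higher in 7 of 8, with a median of 2.32 and a summed level from 12.8 to 25.1 CPM in CHT and from 36.6 to 64.8 CPM in IR/CHT, without overlap. In plate 1 alone 1 of the 8 was called and without the 5 libraries 2, and the count was 3 without CHT library L186, 3 without CHT library L228 and 4 without CHT library L169. CD5, a coreceptor of T cells, ran from 0.367 to 3.60 CPM with a median of 1.84 in CHT and from 2.53 to 19.5 CPM with a median of 13.7 in IR/CHT (log2 fold change 2.35 ± 0.65 SE, adjusted p = 0.0092), and IL7R ran from 8.48 to 19.2 CPM with a median of 11.0 in CHT and from 22.2 to 46.1 CPM with a median of 33.3 in IR/CHT (log2 fold change 1.34 ± 0.41 SE, adjusted p = 0.017). IL7R was not called in plate 1 (adjusted p = 0.059). LCK, the kinase of the T cell receptor, had a log2 fold change of 2.29 (adjusted p = 0.021) but 1.68, adjusted p = 0.21 in plate 1, and it was not called without CHT library L186 (2.14, adjusted p = 0.05) or L228 (2.12, adjusted p = 0.053). Of 6 B and plasma cell markers, JCHAIN, the joining chain of secreted antibodies, and MZB1 were called. JCHAIN ran from 1.61 to 13.2 CPM with a median of 3.05 in CHT and from 12.9 to 69.4 CPM with a median of 34.8 in IR/CHT (log2 fold change 3.16 ± 0.49 SE, adjusted p = 4.9e-05), and the highest CHT value belonged to library L151. MZB1 ran from 0 to 1.14 CPM with a median of 0.119 in CHT and from 0.678 to 3.66 CPM with a median of 2.02 in IR/CHT (log2 fold change 2.66 ± 0.88 SE, adjusted p = 0.029). The call was lost in plate 1 (2.00, adjusted p = 0.2), without the 5 libraries (3.17, adjusted p = 0.099), where JCHAIN alone of the list was called, and without any 1 of CHT libraries L169, L186, L228 and L265 or IR/CHT libraries L273 and L547, at adjusted p-values from 0.05 to 0.074. MS4A2, a chain of the IgE receptor of mast cells, was called of 3 mast cell markers and ran from 0 to 0.629 CPM with a median of 0.113 in CHT and from 0.507 to 2.57 CPM with a median of 1.88 in IR/CHT (log2 fold change 3.04 ± 0.86 SE, adjusted p = 0.012). Of 9 neutrophil markers, S100A8 and ITGAM were higher and LTF lower, and without the 5 libraries 1 was called, lower. The list had a median of 1.05 with 8 of 9 estimates above 0, and its summed level ran from 97.5 to 253 CPM in CHT and from 376 to 603 CPM in IR/CHT, without overlap. S100A8 and LTF reached at most 4.81 and 4.78 CPM in these libraries, so other members made up most of this sum. Those include ITGAM, named above among leukocyte integrins, and which cells these reads came from was not tested. S100A8, calgranulin A, had at most 4 read pairs in a CHT library and ran from 0.643 to 4.81 CPM with a median of 1.14 in IR/CHT (log2 fold change 4.14 ± 1.01 SE, adjusted p = 0.0037). LTF, lactoferrin of neutrophil granules, ran from 0.279 to 4.78 CPM with a median of 1.19 in CHT and from 0 to 0.643 CPM with a median of 0.42 in IR/CHT (log2 fold change -2.22 ± 0.63 SE, adjusted p = 0.012) and was not called in plate 1 (-2.53, adjusted p = 0.073) or without CHT library L265 (-1.63, adjusted p = 0.057).

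Some genes of pigment cells were higher. Of 5 tested melanocyte markers 3 rose, with a summed level from 6.42 to 7.63 in CHT and from 8.38 to 10.07 in IR/CHT on the log2 CPM scale. TRPM1, a channel of melanocytes, ran from 3.29 to 6.67 with a median of 5.48 in CHT and from 7.42 to 9.75 with a median of 8.00 in IR/CHT on the log2 CPM scale, against -2.08 in the median Ctrl valve (log2 fold change 3.01 ± 0.44 SE, adjusted p = 2.8e-05). MLANA, a melanosome protein, ran from 7.36 to 31.5 CPM with a median of 14.1 in CHT and from 36.5 to 126 CPM with a median of 72.9 in IR/CHT (log2 fold change 2.23 ± 0.56 SE, adjusted p = 0.0049), with 2.01, adjusted p = 0.12 without the 5 libraries. MITF, a transcription factor of melanocytes, osteoclasts and macrophages, ran from 41.0 to 68.4 CPM with a median of 52.5 in CHT and from 77.2 to 124 CPM with a median of 93.0 in IR/CHT (log2 fold change 0.88 ± 0.16 SE, adjusted p = 1.9e-04). The pigment transporters SLC45A2 and OCA2 had log2 fold changes of -0.02 and -1.49 and were not called. Which cells made GPNMB, TRPM1, MLANA and MITF was not tested.

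**Figure D4:**
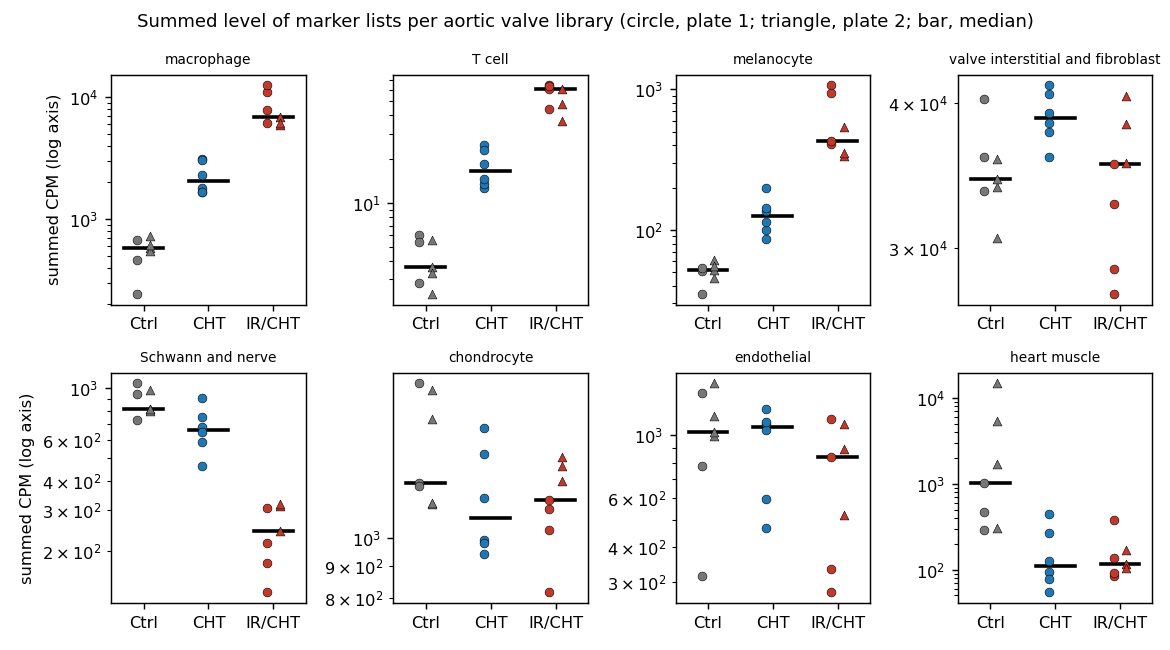
Summed CPM (log axes) of 8 lists of cell type markers in each Ctrl, CHT and IR/CHT aortic valve library, with circles for plate 1, triangles for plate 2 and bars at the medians. The macrophage sum runs from 1651 to 3079 in CHT and from 5915 to 12531 in IR/CHT, while the ranges of the endothelial and heart muscle sums overlap.

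Valve interstitial and fibroblast markers fell in part. Of 18 tested, 6 were lower and the other 12 were not called (8 lower in plate 1, 4 without the 5 libraries), with a median of -0.66. MFAP5, a microfibril protein, ran from 210.2 to 496 CPM with a median of 344 in CHT and from 17.7 to 116 CPM with a median of 90.7 in IR/CHT. The CHT range held the Ctrl median of 432 CPM, and every IR/CHT valve lay below every CHT valve (log2 fold change -2.14 ± 0.31 SE, adjusted p = 2.4e-05). DPT, dermatopontin, which binds collagen and decorin, ran from 7.68 to 8.52 with a median of 8.08 in CHT and from 5.17 to 6.91 with a median of 6.17 in IR/CHT on the log2 CPM scale (log2 fold change -1.84 ± 0.27 SE, adjusted p = 2.5e-05). TBX20, a T-box factor of endocardial cushions and valve cells, ran from 142 to 292 CPM with a median of 209 in CHT and from 31.9 to 101 CPM with a median of 84.2 in IR/CHT, against 406 in Ctrl (log2 fold change -1.55 ± 0.23 SE, adjusted p = 2.7e-05). The other called markers were DCN (-1.61), THY1 (-0.84) and PRRX1 (-0.83). The fibroblast genes VIM, LUM and COL3A1 had log2 fold changes of -0.11, -0.14 and -0.15 and were not called. Chains of the main fibrous collagens overlapped between the groups. COL3A1 ran from 4706 to 8426 CPM with a median of 6526 in CHT and from 4226 to 7439 CPM with a median of 6209 in IR/CHT, and COL1A1 from 9.11 to 12.76 with a median of 11.29 in CHT and from 10.66 to 13.61 with a median of 11.35 in IR/CHT on the log2 CPM scale. COL1A1 was not called (log2 fold change 0.64 ± 0.62, adjusted p = 0.51), and its estimate turned to -0.78 without the 5 libraries.

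Chains of basement membrane, beaded filament and fibril-associated collagens were among those that fell. Of 29 tested collagen chains 9 were lower and 1 higher, with a median of -0.52, and in plate 1 9 were lower and without the 5 libraries 6. COL6A6, a chain of collagen VI, ran from 87.1 to 165 CPM with a median of 121 in CHT and from 9.56 to 53.2 CPM with a median of 33.0 in IR/CHT (log2 fold change -1.96 ± 0.31 SE, adjusted p = 5.3e-05). COL4A6, of the basement membrane, ran from 37.1 to 74.1 CPM with a median of 59.7 in CHT and from 15.3 to 27.9 CPM with a median of 24.3 in IR/CHT (log2 fold change -1.35 ± 0.22 SE, adjusted p = 9.4e-05), and COL4A3, COL4A4 and COL4A5 fell by 1.46, 1.31 and 0.72 on the log2 scale. COL4A1 and COL4A2, the common chains, had log2 fold changes of 0.80 and 0.68 and were not called. COL12A1, which decorates collagen fibrils, ran from 1816 to 3643 CPM with a median of 3000.4 in CHT and from 1091 to 1810.5 CPM with a median of 1393 in IR/CHT (log2 fold change -1.05 ± 0.24 SE, adjusted p = 0.0021) and had -1.02, adjusted p = 0.062 without the 5 libraries. COL14A1, COL21A1 and COL25A1 were also lower. COL15A1 was higher, but not called in plate 1 (0.85, adjusted p = 0.1) or without the 5 libraries (0.25, adjusted p = 0.73). Of 24 proteoglycan and elastic fibre genes 9 were lower, in all libraries and in plate 1, and 4 without the 5 libraries. FBN2 (fibrillin 2) and MFAP4, both of microfibrils, fell by 1.30 ± 0.28 and 1.51 ± 0.34, with overlap of the groups. The others were LTBP1 (-0.77), HAS2 (-1.12), HAPLN1 (-1.21), FBLN5 (-1.26), OGN (-1.48) and DCN (-1.61) and MFAP5, and HAS2 makes hyaluronan. Versican (VCAN, -0.67) and biglycan (BGN, -0.22), 2 abundant valve proteoglycans, were not called.

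Matricellular proteins and crosslinking enzymes had 3 of 24 higher and 3 lower, a called share of 25% beside 19.7% of all tested genes, and in plate 1 they had 1 and 3. CCN4, a Wnt-induced matricellular protein, rose by 1.11 ± 0.23 and CCN2 (connective tissue growth factor) and FN1 (fibronectin) by 0.86 and 0.69, the latter 2 not called in plate 1. SPARC, which binds collagen, ran from 12.3 to 27.1 CPM with a median of 19.0 in CHT and from 4.88 to 11.5 CPM with a median of 7.45 in IR/CHT (log2 fold change -1.30 ± 0.24 SE, adjusted p = 3.2e-04). THBS3 and SPARCL1 fell by 1.07 and 1.49 on the log2 scale. Collagenases rose and several ADAMTS proteases fell. Of 29 tested proteases and inhibitors 5 were higher, ADAMTS14 and, with their log2 fold changes, MMP1 (6.42), MMP13 (4.29), MMP12 (2.15) and TIMP1 (2.00), and 5 lower, TIMP4 (-3.22), ADAMTS19 (-3.06), ADAMTS3 (-2.19), ADAMTS6 (-1.73) and TIMP3 (-0.61). ADAMTS3, which processes procollagen, ran from 50.5 to 104 CPM with a median of 69.5 in CHT and from 5.51 to 26.9 CPM with a median of 18.4 in IR/CHT (log2 fold change -2.19 ± 0.28 SE, adjusted p = 6.7e-06). ADAMTS6 ran from 50.1 to 88.3 CPM with a median of 64.9 in CHT and from 14.0 to 27.5 CPM with a median of 18.9 in IR/CHT (log2 fold change -1.73 ± 0.21 SE, adjusted p = 4.0e-06). The inhibitors thus diverged, since TIMP4 ran from 10.0 to 36.0 CPM with a median of 20.8 in CHT and from 0.621 to 4.42 CPM with a median of 1.92 in IR/CHT (log2 fold change -3.22 ± 0.42 SE, adjusted p = 8.3e-06) while TIMP1 rose. Without IR/CHT library L236, 6 members of the list were called in place of 10.

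Several transcription factors and receptors of heart and valve development fell. Of 35 tested 16 were lower and 2 higher (18 and 1 in plate 1, 9 lower without the 5 libraries), with a median of -0.82. ISL1, a factor of heart progenitors, ran from 4.70 to 7.44 CPM with a median of 6.66 in CHT and from 0.697 to 3.00 CPM with a median of 1.86 in IR/CHT (log2 fold change -1.75 ± 0.25 SE, adjusted p = 2.1e-05). ERBB3, a neuregulin receptor that valve cushions and Schwann cells need, ran from 38.9 to 95.5 CPM with a median of 63.3 in CHT and from 2.91 to 21.0 CPM with a median of 13.3 in IR/CHT (log2 fold change -2.42 ± 0.39 SE, adjusted p = 6.8e-05). GATA4, HAND1, HAND2, MEIS1, MEIS2 and TBX18 were lower as well, at log2 fold changes from -1.65 to -0.63, as were the Notch ligand JAG1 and the Notch targets HEY1 and HEY2. The 2 higher genes were SNAI1 (1.92, not called in plate 1), a driver of mesenchymal transition, and MEF2C (0.67), a factor of muscle and myeloid cells. SOX9, a regulator of cartilage and valve matrix, ran from 6.12 to 7.87 with a median of 6.64 in CHT and from 4.75 to 6.67 with a median of 5.74 in IR/CHT on the log2 CPM scale and was called (log2 fold change -0.98, adjusted p = 0.031). That call was lost without the 5 libraries (-1.04, adjusted p = 0.11) and without any 1 of CHT libraries L151 and L244 and IR/CHT libraries L174, L178, L236 and L257, at adjusted p-values up to 0.11.

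Several ligands, receptors, inhibitors and nuclear factors of the Wnt pathway fell. Of 42 tested 16 were lower and the other 26 were not called (17 lower in plate 1, 7 without the 5 libraries), with a median of -0.81. Among ligands and their enhancers, WNT5A ran from 2.67 to 8.09 CPM with a median of 5.37 in CHT and from 0.791 to 1.90 CPM with a median of 1.56 in IR/CHT (log2 fold change -1.90 ± 0.25 SE, adjusted p = 9.3e-06). RSPO3, an R-spondin that raises Wnt receptor levels, ran from 23.8 to 55.7 CPM with a median of 30.2 in CHT and from 2.82 to 10.7 CPM with a median of 8.02 in IR/CHT, with a log2 fold change of -2.35 ± 0.33 (SE, adjusted p = 1.5e-05). WNT16, WNT2B and RSPO2 were also lower (-2.41, -0.86 and -1.32). Several inhibitors fell too. DKK2, which blocks the coreceptor LRP6, ran from 13.1 to 50.4 CPM with a median of 26.4 in CHT and from 1.46 to 6.15 CPM with a median of 3.95 in IR/CHT (log2 fold change -2.73 ± 0.35 SE, adjusted p = 7.1e-06), and WIF1, FRZB and APCDD1 fell by 2.00, 1.43 and 2.17. DKK1, another inhibitor of LRP6, ran from 0.291 to 2.93 CPM with a median of 0.761 in CHT and from 1.33 to 4.92 CPM with a median of 2.88 in IR/CHT and was not called (log2 fold change 1.51 ± 0.63, adjusted p = 0.087), with 2.06, adjusted p = 0.029 without CHT library L228 and an adjusted p of 0.039 by DESeq2. Receptors and nuclear factors that fell were FZD3 (-1.11), LGR4 (-1.20), LRP6 (-0.76), KREMEN1 (-0.61), TCF7 (-0.92), TCF7L2 (-0.73) and LEF1 (-1.03). AXIN2, a common target of the pathway, had a log2 fold change of -0.84 and was not called.

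In the TGF-beta and BMP family 11 of 36 genes were lower and 2 higher (10 and 1 in plate 1, 8 lower without the 5 libraries), with a median of -0.24. BMP3, an antagonist of other BMPs, ran from 10.8 to 25.0 CPM with a median of 17.3 in CHT and from 0.887 to 5.43 CPM with a median of 2.71 in IR/CHT (log2 fold change -2.59 ± 0.29 SE, adjusted p = 2.9e-06). BMP2, a ligand that induces bone, ran from 1.95 to 6.03 CPM with a median of 4.40 in CHT and from 0.697 to 1.87 CPM with a median of 0.961 in IR/CHT (log2 fold change -1.90 ± 0.32 SE, adjusted p = 1.3e-04). The receptors BMPR1A and TGFBR3 fell by 1.04 ± 0.18 and 1.05 ± 0.13 on the log2 scale, without overlap of the groups. TGFB3, BMP5, BMPR1B, ACVR1, SMAD1, SMAD9 and CHRDL1 were also lower, and ACVRL1 (1.68, not called in plate 1) and the BMP target ID2 (1.13) were higher. Bone genes did not rise as a group. Of 17 tested 5 were lower and 1 higher, with a median of -0.57. BGLAP, osteocalcin, ran from 7.37 to 38.4 CPM with a median of 11.0 in CHT and from 0.355 to 4.94 CPM with a median of 1.57 in IR/CHT (log2 fold change -2.98 ± 0.52 SE, adjusted p = 1.9e-04). RUNX2, the main osteoblast factor, ran from 0.39 to 2.84 CPM with a median of 1.24 in CHT and from 0.904 to 5.64 CPM with a median of 2.75 in IR/CHT and was not called (log2 fold change 1.06 ± 0.54, adjusted p = 0.16). The higher member, IBSP (2.31), was not called in plate 1, and without IR/CHT library L236, 3 members were called in place of 6, as without the 5 libraries. Ephrins and their receptors had 6 of 19 lower and 1 higher, and 4 lower without the 5 libraries. EPHA3 and EPHA7 fell by 1.76 ± 0.26 and 2.10 ± 0.37 without overlap, and the ligand EFNA1 by 1.16 ± 0.27 with overlap. EPHA2, the higher member, had 1.02, adjusted p = 0.063 in plate 1.

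Among the lower genes with the smallest p-values was TET1, which oxidises methylated cytosine in DNA. It ran from 32.5 to 55.4 CPM with a median of 48.4 in CHT and from 7.41 to 17.1 CPM with a median of 15.2 in IR/CHT, and its Ctrl median was 54.1 CPM (log2 fold change -1.84 ± 0.18 SE, adjusted p = 7.8e-07). PRKG1, the kinase that cGMP activates, ran from 83.8 to 134 CPM with a median of 121 in CHT and from 28.0 to 46.1 CPM with a median of 44.2 in IR/CHT (log2 fold change -1.55 ± 0.17 SE, adjusted p = 1.6e-06). CNGA2, a channel opened by cyclic nucleotides, ran from 6.78 to 14.1 CPM with a median of 8.23 in CHT and from 0.282 to 2.19 CPM with a median of 1.20 in IR/CHT (log2 fold change -3.04 ± 0.32 SE, adjusted p = 1.6e-06). These 3 separated CHT from IR/CHT completely, as did 4.13% of all tested genes in that direction, and their choice by p-value favours this. PDE3A, a phosphodiesterase of cAMP, fell by 1.22 ± 0.13 and TRPM3, a cation channel, by 2.82 ± 0.31. TRPM3 ran from 30.6 to 105 CPM with a median of 64.2 in CHT and from 3.04 to 13.9 CPM with a median of 10.2 in IR/CHT. NCAM1, an adhesion molecule of nerve and muscle, FHOD3, a formin of actin filaments, CTTNBP2, a partner of cortactin, and EPB41L4B fell by 1.35, 1.73, 1.85 and 2.07. SPOCK3, SYT6, TIMP4 and SLC7A14 were among the 5 largest falls in genes of at least 5 CPM. SYT6, a synaptotagmin of vesicle fusion, ran from 4.38 to 18.5 CPM with a median of 9.35 in CHT and from 0.282 to 2.13 CPM with a median of 0.76 in IR/CHT (log2 fold change -3.35 ± 0.43 SE, adjusted p = 7.8e-06). SLC7A14 fell by 3.21 and was not called without the 5 libraries (adjusted p = 0.096). SPOCK3, a testican proteoglycan, fell by 3.43 (adjusted p = 0.025). The call of SPOCK3 was lost in plate 1 (-2.73, adjusted p = 0.2), without the 5 libraries (-2.26, adjusted p = 0.31), without CHT library L186 (-2.72, adjusted p = 0.086) and without IR/CHT library L257 (-3.18, adjusted p = 0.051).

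Some markers of nerve and cartilage were lower. Of 9 Schwann and nerve markers 5 fell, among them NCAM1 (-1.35), CDH19 (-1.37), S100B (-1.84) and ERBB3 (-2.42), and the list's summed level ran from 465 to 907 CPM in CHT and from 133 to 318 CPM in IR/CHT. In plate 1 alone 2 were called, and 2 without the 5 libraries. Without CHT library L244, IR/CHT library L174 or IR/CHT library L236, 3 of the 9 were called. Of 14 chondrocyte markers 7 were lower and 1 higher (4 and 1 without the 5 libraries), while the list's summed level overlapped, running from 944 to 1513 CPM in CHT and from 816 to 1356 CPM in IR/CHT, with medians of 1078 and 1152 CPM. SOX5, a partner of SOX9 in cartilage, ran from 6.72 to 7.38 with a median of 7.20 in CHT and from 4.34 to 5.92 with a median of 5.46 in IR/CHT on the log2 CPM scale (log2 fold change -1.77 ± 0.21 SE, adjusted p = 4.2e-06), and SOX6 fell by 1.07 ± 0.23 with overlap of the groups. MATN1, a cartilage matrix protein, was the higher one and ran from 139.6 to 283 CPM with a median of 202 in CHT and from 343 to 715 CPM with a median of 532 in IR/CHT (log2 fold change 1.36 ± 0.22 SE, adjusted p = 1.0e-04), from 34.5 in the median Ctrl valve. Without CHT library L151, 5 chondrocyte markers were called in place of 8.

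Of the endothelial, smooth muscle and heart muscle markers 3, 3 and 1 were called, which is 15, 17.6 and 3.85% of those tested beside 19.7% of all tested genes. Of 20 endothelial markers 1 was higher and 2 lower, with a median log2 fold change of -0.22, and without the 5 libraries 1 was called, lower, with a median of 0.34. The summed endothelial level ran from 8.87 to 10.28 in CHT and from 8.11 to 10.16 in IR/CHT on the log2 CPM scale. PECAM1 ran from 5.73 to 8.37 with a median of 7.84 in CHT and from 4.35 to 8.28 with a median of 7.80 in IR/CHT on the log2 CPM scale, VWF ran from 5.00 to 7.09 with a median of 5.91 in CHT and from 3.57 to 7.50 with a median of 6.39 in IR/CHT on the log2 CPM scale, and neither was called (adjusted p = 0.84 and 0.73). The estimate for PECAM1 turned from -0.26 to 0.66 without the 5 libraries. PROX1, a transcription factor of lymphatic and valve endothelium, ran from 19.2 to 75.5 CPM with a median of 54.6 in CHT and from 2.71 to 19.2 CPM with a median of 9.20 in IR/CHT (log2 fold change -2.43 ± 0.40 SE, adjusted p = 1.1e-04). ROBO4, a receptor of endothelium, was higher (1.12 ± 0.30, but 1.03, adjusted p = 0.066 in plate 1) and RAMP2, a subunit of the adrenomedullin receptor, lower (-1.21 ± 0.35). In the hemostasis list 4 of 18 genes were higher and 1 lower, and without the 5 libraries 1 was called, higher. PLAU, urokinase, ran from 51.2 to 134 CPM with a median of 64.4 in CHT and from 149.8 to 321 CPM with a median of 202 in IR/CHT (2.65-fold, adjusted p = 3.3e-04), and F5 and PLAUR rose by 2.31 and 1.73. PTGS1 was the lower one. ACTA2, smooth muscle actin and the usual marker of myofibroblasts, ran from 299 to 509 CPM with a median of 377 in CHT and from 285 to 646 CPM with a median of 427 in IR/CHT and did not pass the test (log2 fold change 0.11 ± 0.21, adjusted p = 0.76). Of 17 smooth muscle and myofibroblast markers, ACTG2 was higher (1.76) and SYNPO2 (-1.37) and MYOCD (-1.07), a coactivator of smooth muscle genes, lower. Of these 17, 5 were called in plate 1, and without the 5 libraries 1 was higher and 1 lower. Of 26 heart muscle markers XIRP1 was called (log2 fold change 2.25, adjusted p = 0.049), and the call was lost without the 5 libraries (1.20, adjusted p = 0.52) and without any 1 of CHT libraries L151, L186, L228, L244 and L265 and IR/CHT libraries L174, L178, L194, L236 and L257, at adjusted p-values up to 0.11. MYH7, heavy chain of heart muscle myosin, ran from 2.33 to 8.23 with a median of 5.27 in CHT and from 2.43 to 7.47 with a median of 4.95 in IR/CHT on the log2 CPM scale, with a log2 fold change of -0.64 that became 0.29 without CHT library L244 and -1.26 without IR/CHT library L236. The summed heart muscle markers ran from 54.3 to 449 CPM in CHT and from 85.3 to 384 CPM in IR/CHT, and which cells these reads came from was not tested.

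In the remaining lists, of 16 glucocorticoid genes 3 were higher and 2 lower (2 lower without the 5 libraries). NR3C2, the mineralocorticoid receptor, fell by 1.46 ± 0.29 while FKBP5, a common glucocorticoid target, rose by 1.02 ± 0.27. SRD5A2, a steroid reductase, fell by 2.17 ± 0.44. Of 38 mitotic genes 4 were higher (10.5% called, beside 19.7% of all tested genes), with a median of 0.59 and 37 estimates above 0, and the summed level ran from 357 to 579.7 CPM in CHT and from 539.9 to 796 CPM in IR/CHT, with overlap. NCAPH, of the condensin complex, ran from 33.7 to 59.8 CPM with a median of 42.8 in CHT and from 83.8 to 111 CPM with a median of 88.5 in IR/CHT (log2 fold change 1.05 ± 0.21 SE, adjusted p = 7.4e-04) and RRM2, which supplies deoxynucleotides, rose by 1.12. BUB1 and RACGAP1, of the spindle checkpoint and of cytokinesis, were called at 0.93 (adjusted p = 0.022) and 0.73 (adjusted p = 0.022), but neither in plate 1 nor without CHT library L228 or L244. The list had 10 called genes by DESeq2, 1 without CHT library L228, 1 without L244, 7 without L265, 2 without IR/CHT library L273 and 0 without the 5 libraries. Of 26 nuclear subunits of the respiratory chain 4 were higher (15.4% called, beside 19.7% of all tested genes) and 23 estimates were above 0. In plate 1 alone 7 were higher and 1 lower, and without the 5 libraries 2 were higher. The higher ones included UQCRC1 (0.89 ± 0.17), NDUFS3 (0.77 ± 0.16) and COX5B (0.63 ± 0.14). COX5B lay just over the fold threshold and under it without CHT library L228 (0.58). Its call was also lost with the plate as a covariate, with only the CHT and IR/CHT libraries and without the 5 libraries. In the list 7 subunits were called without CHT library L265 or IR/CHT library L194. Of 5 adipocyte markers LPL and PPARG (1.59 ± 0.37), a lipid-sensing receptor that macrophages also express, were higher, and ADIPOQ had -1.20 and was not called. Of 5 red blood cell markers edgeR and DESeq2 called 0 in all libraries, with 1 at an unadjusted p under 0.05. SPTB, spectrin beta, the member with the smallest p, had a log2 fold change of -0.93 (adjusted p = 0.062) and -1.42, adjusted p = 0.015 in plate 1.

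The same addition of irradiation to the diet was measured in other tissues of these rabbits, among which the beam also covered the thoracic aorta. IR/CHT against CHT called 88 of 14777 genes in the aorta (0.596%, 24 higher and 64 lower), 29 of 15322 in the mitral valve (0.189%, 8 and 21) and 11 of 14450 in the pulmonary valve (0.0761%, 11 and 0), with 3370, 2007 and 3539 genes at an unadjusted p under 0.05. DESeq2, the tool of the study, called 580, 149 and 470 genes as run here. The paper reports fewer genes for this contrast in the aorta and the aortic valve than DESeq2 called here, and why was not tested. With only the CHT and IR/CHT libraries of the tissue edgeR called 24, 1 and 0, the last with 2604 at an unadjusted p under 0.05. The tricuspid valve was not analysed here. Leaving out 1 library at a time moved the main edgeR counts (88, 29 and 11). They ran from 2 (without CHT library L560) to 661 (without IR/CHT library L579) in the aorta. In the mitral valve they ran from 6 to a sum of 84 higher and 102 lower (without IR/CHT library L175), and in the pulmonary valve from 0 to 24. A difference between the tissues was tested directly, as the response in the aortic valve minus that in the other tissue. It was called at an adjusted p under 0.05 in 999 of 16125 genes against the aorta (6.2%, 304 more positive and 695 more negative in the aortic valve). With DESeq2 size factors as the scaling these were 494 and 592, and 520 of 695 were more negative without CHT library L244 and 517 of 694 without IR/CHT library L236. Against the mitral valve it was called in 327 of 16166 (2.02%, 34 and 293, or 51 more positive of 250 with DESeq2 size factors) and against the pulmonary valve in 2219 of 15975 (13.9%, 664 and 1555). With a term for each rabbit, whose tissues deviated together, the count against the mitral valve was 1675 (444 more positive and 1231 more negative), and with only the CHT and IR/CHT libraries in the model it was 19 (3 and 16). Without that term, leaving out 1 aortic valve library gave from 22 more positive and 147 more negative (without CHT library L228) to 465 in all (without IR/CHT library L273) against the mitral valve. The heart muscle markers moved differently in those tissues, with list medians of 0.11 in the aortic and -0.29 in the mitral valve against 2.13 in the aorta and 3.67 in the pulmonary valve, and their part in these differences was not tested.

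For some interferon genes the response was more positive in the aortic valve. The list median was 1.24 there, 0.36 in the aorta, -0.11 in the pulmonary and 0.29 in the mitral valve, and of the 24 tested genes the difference was called as more positive for 6 against the aorta, 14 against the pulmonary and 3 against the mitral valve (12 with the rabbit term). ISG15 had a response of 0.13 ± 0.41 (SE, adjusted p = 0.87) in the aorta, so the aortic valve exceeded it by 2.31 ± 0.54 (SE, adjusted p = 0.0051). For TIMP1 the aortic valve response exceeded that of the mitral valve by 1.48 ± 0.24 (SE, adjusted p = 6.0e-04), and for PLIN2 by 1.25 ± 0.29 (SE, adjusted p = 0.011). Lipid handling genes had list medians of 0.59, 0.50 and 0.22 in the aorta, mitral and pulmonary valve, and 4, 2 and 9 of the 23 differed as more positive in the aortic valve (6 against the mitral valve with the rabbit term). Of 15 macrophage markers, 5 differed as more positive against the pulmonary valve. Against the aorta and the mitral valve edgeR called 0 of the 15, with 3 and 2 at an unadjusted p under 0.05. With the rabbit term it called 2 of the 15 against the mitral valve, beside 1675 of all 16166 tested genes. CD68 responded by 0.64 ± 0.38 (SE, adjusted p = 0.31) in the aorta and 1.07 ± 0.31 (SE, adjusted p = 0.13) in the mitral valve, and the difference from the aortic valve was 1.09 ± 0.46 (SE, adjusted p = 0.16) and 0.66 ± 0.39 (SE, adjusted p = 0.5). The p53 list had medians of 0.58 in the aorta, 0.18 in the pulmonary and 0.24 in the mitral valve. Its difference was called by edgeR for 4 of 19 genes against the pulmonary valve, where 13.9% of all tested genes differed. Against the aorta and the mitral valve edgeR called 0, with 2 and 5 at an unadjusted p under 0.05, and 4 against the mitral valve with the rabbit term.

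Some Wnt genes and developmental factors responded more negatively in the aortic valve than elsewhere. Against the aorta and the mitral valve 8 and 5 of 42 Wnt genes and against the pulmonary valve 15 of 41 did so, as did 11, 5 and 16 of 35 developmental factors against these tissues. With the rabbit term 20 Wnt genes and 15 developmental factors responded more negatively against the mitral valve. The Wnt list had medians of 0.31, -0.11 and 0.19 in those tissues. TBX20 responded by -0.24 ± 0.14 (SE, adjusted p = 0.48) in the mitral valve, and the aortic valve lay below that by -1.37 ± 0.27 (SE, adjusted p = 0.0037). MFAP5 differed from the mitral valve by -1.65 ± 0.36 (SE, adjusted p = 0.007) and TET1 by -1.33 ± 0.25 (SE, adjusted p = 0.0024). TRPM3 responded by -0.96 ± 0.23 (SE, adjusted p = 0.075) in the mitral valve, with a difference of -1.92 ± 0.38 (SE, adjusted p = 0.0039). Of 29 collagen chains 5, 2 and 9 responded more negatively in the aortic valve against the aorta, mitral and pulmonary valve. Of all tested genes 6.2, 2.02 and 13.9% differed there in either direction. With the rabbit term 10 chains responded more negatively and 3 more positively against the mitral valve.

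**Figure D5:**
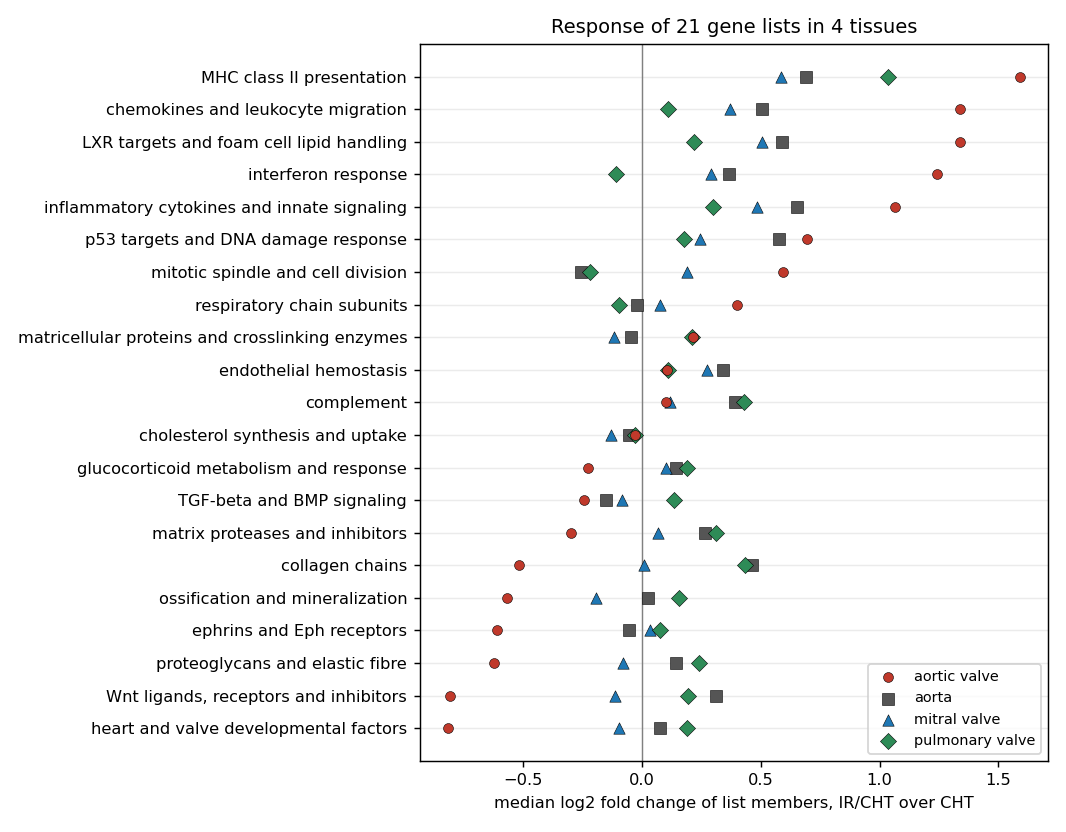
Median log2 fold change of IR/CHT over CHT (horizontal) over the members of 21 gene lists (rows) in the aortic valve (circles), aorta (squares), mitral valve (triangles) and pulmonary valve (diamonds). Aortic valve medians run from -0.82 to 1.59, and for the interferon response the aortic valve (1.24) lies to the right of the aorta (0.36).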

How the data were processed

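The authors deposited gene counts, as unnormalized read pairs on each gene, in 1 table for each of the 2 plates. Per the study's methods the reads were processed with nf-core/rnaseq on OryCun2.0 with the Ensembl annotation, from stranded total RNA libraries. Those methods do not mention pooling, and each library carries the number of 1 rabbit. How reads that match several gene copies were treated is not given in the sources used here. Both tables list 29587 genes, 14716 with a symbol.

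From these counts, edgeR 4.0.16 (R 4.3.3) tested differential expression after filterByExpr had dropped poorly counted genes and TMM had set the scaling factors. A robust quasi-likelihood model without covariates was fitted to the 27 aortic valve libraries of 4 treatments. The study's own tool, DESeq2 (1.42.0), was an alternative. A gene was called at a Benjamini-Hochberg adjusted p under 0.05 over all tested genes and a fold change over 1.5, two-sided. CPM are on TMM-scaled library sizes, SEs were derived from the F statistic, and "no overlap" compares single libraries. Counting error alone limits genes of few reads, and where nothing states otherwise p-values measure the spread between single rabbits. Tissue differences were interactions, fitted to both tissues with a mean per tissue and treatment, with an adjusted p under 0.05 as the threshold.

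Tissues with the same rabbit number came from the same animal. With group means removed, same-rabbit profiles correlated at a median of 0.242 with the aorta (21 of 27 over 0.1), 0.501 with the mitral valve (26 of 26) and 0.220 with the pulmonary valve (20 of 27), and those of other rabbits at -0.010, -0.016 and -0.011. The interaction was therefore also fitted with a block for each rabbit. The libraries of a group differed by more than sampling noise (smallest chi-square per gene 54.2 in CHT and 13.1 in IR/CHT), so none was counted as a duplicate.

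The members and the 35 lists (21 of processes and 14 of cell type markers) were chosen with earlier results of these data known. Named genes were the 10 higher and 10 lower called genes with a symbol and the smallest p, the 5 higher and 5 lower with the largest fold change among those with at least 5 CPM, the 3 called genes with the smallest p in each list (or 1 where none was called) and 16 set genes, of which CDKN1A, MDM2 and TNNT2 have no row by that symbol. Results of some genes are not reported here, though they stay in the fits and counts. Other list members named in the text were chosen after their values were seen. Alternatives were DESeq2, its size factors, a fit without the low-count filter, a fit to only the groups compared, the plate as a covariate, plate 1 alone, a test against a fold change of 1.5, each library left out in turn and, added after the data were seen, leaving out 5 libraries. The test procedure was checked on simulated counts.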

Additional observations from a re-analysis of the deposited data

Results flagged for a closer look

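In 14 of 250 sets of libraries (125 named genes in each of CHT and IR/CHT) the highest or lowest aortic valve library stood farther from its neighbour than Dixon's 95% limit allows, which chance gives in about 1 of 20 sets. CHT library L265 was lowest in its group for TET1 (32.5 CPM), PRKG1 (83.8 CPM), EFNA1 (6.68 CPM), VSIG4 (29.6 CPM), RAMP2 (28.0 CPM) and MYOCD (12.2 CPM). Further CHT values apart were JCHAIN at 13.2 CPM in library L151, the highest, and BUB1 at 1.77 CPM in L244 and NDUFS3 at 18.0 CPM in L228, both the lowest. IR/CHT library L178 was highest for BNIP5 (41.2 CPM) and TLR2 (45.4 CPM) and lowest for LTF (0 CPM), and IR/CHT library L236 was highest for ABHD12 (314 CPM) and UQCRC1 (95.2 CPM).

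For 15 genes the response in the aortic valve was compared with that in the aorta, the mitral and the pulmonary valve, and differences at an adjusted p under 0.05 over all genes (edgeR) are given as log2 differences of the 2 responses. Of these genes 10 are the 5 higher and 5 lower with the smallest p in the aortic valve and the rest were picked with the results known, a choice that favours a strong response there. Over all genes 6.2%, 2.02% and 13.9% differed in the 3 tissues. Against the aorta 13 differed. ABHD12 (1.25), TIMP1 (1.78), SRGN (1.53), SAMHD1 (0.99), CTSZ (1.05), PLIN2 (1.35) and ISG15 (2.31) responded more positively in the aortic valve, and TET1 (-1.42), PRKG1 (-0.91), CNGA2 (-2.64), TRPM3 (-1.90), MFAP5 (-1.81) and TBX20 (-3.02) more negatively. Against the mitral valve 11 differed, with TIMP1 (1.48), SAMHD1 (0.91), PLIN2 (1.25) and ISG15 (2.05) more positive and TET1 (-1.33), PRKG1 (-1.13), CNGA2 (-2.32), PDE3A (-1.05), TRPM3 (-1.92), MFAP5 (-1.65) and TBX20 (-1.37) more negative. All 15 differed from the pulmonary valve. There, ABHD12 (1.35), TIMP1 (1.73), SRGN (2.02), SAMHD1 (1.39), CTSZ (1.37), PLIN2 (1.72), ISG15 (2.23) and CD68 (1.45) were more positive and TET1 (-1.88), PRKG1 (-1.62), CNGA2 (-3.31), PDE3A (-1.47), TRPM3 (-2.89), MFAP5 (-2.09) and TBX20 (-2.13) more negative in the aortic valve. No count of these genes is read against those shares, and the causes were not tested.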

How the results depend on the processing

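The 3043 genes called in the aortic valve became 3574 with DESeq2, 3075 with its size factors, 2870 without the filter on low counts, 2976 with only the groups compared, 2996 with the plate as a covariate and 2753 with plate 1 alone, and ran from 2537 to 3299 when 1 library was left out. They became 1152 when tested against a fold change of 1.5, where more is asked of each gene, and 1269 (436 higher, 833 lower) without the 5 libraries beyond 50 on the second component, where 8 are left. The aorta's 88 genes became 580 with DESeq2, 24 with only the groups compared and 53 without the filter, and ran from 2 to 661 with 1 library left out. For the mitral valve (29) these were 149, 1 and 17, with 15 under the plate covariate and from 6 to 1.9e+02 (84 higher and 102 lower) with 1 library left out. For the pulmonary valve (11) DESeq2 called 470, the plate covariate gave 17 and the groups compared alone 0 (edgeR, 2604 at an unadjusted p under 0.05), and leaving out 1 library gave from 0 to 24. The causes were not tested.

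With each rabbit as a block, the pairing by animal, the tissue difference was called in 1675 genes against the mitral valve (327 without it), 1036 against the aorta and 2393 against the pulmonary valve. Against the mitral valve it was called in 19 with only the groups compared and from 1.7e+02 (22 more positive and 147 more negative) to 465 with 1 library left out. Against the aorta and the pulmonary valve these ranges were 694 to 1191 and 1753 to 2422.

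Of the 130 genes that the naming rule chose, 86 kept direction and call under every alternative in which they were fitted (all 21, but 15 for MMP1 and 18 for IL1B). Calls were lost in 26 when tested against a fold change of 1.5, in 31 without the 5 libraries, in 9 with plate 1 alone, in 6 with the plate covariate, and in 34 of 1681 combinations of gene and library left out. Those lost without the 5 libraries included FKBP5, PLAU, PTGS1, NDUFS3, COX5B, ITGAM, S100A8, CD5, IL7R, MS4A2, ROBO4, RAMP2, MYOCD, PPARG, SOX6, ACOD1, SLC7A14, SPOCK3, COL12A1, STARD4, FDFT1, NCAPH, BUB1, RACGAP1, MZB1, XIRP1, LPL, MLANA and SOX9. Directions turned only in genes that were not called: ACTA2 (-0.0018 without IR/CHT library L174, from there to 0.18 over the libraries left out), MYH7 (0.29 without CHT library L244, down to -1.26), PECAM1 (0.66) and COL1A1 (-0.78), the last 2 without the 5 libraries. Depth limits what genes of a few CPM can show. For these even a change larger than its SE could go uncalled, as for IL1B, TNF and DKK1 in the main fit.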
